A study of Mus musculus with 12 samples.

Results

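Interferon-stimulated genes are genes whose transcription increases when a cell receives an interferon signal, and a set of 37 of them was followed by RNA sequencing in mouse bone marrow-derived macrophages. The set was chosen by gene symbol, and all 37 symbols were found among the 54582 symbols that both deposited count tables hold. The study compared macrophages labelled as lacking Kif13b, a gene for a kinesin motor protein, with wild-type macrophages, to ask about efferocytosis, the uptake of dying cells. The 4 groups of 3 libraries were Kif13b-/- macrophages with apoptotic cells (KO + AC), wild-type macrophages with apoptotic cells (WT + AC), Kif13b-/- macrophages alone (KO) and wild-type macrophages alone (WT). The cells came from tibial marrow, and the labels give an age of 6 to 8 weeks. For 90 min the AC groups were kept with apoptotic Jurkat cells (Jurkat is a human leukaemia line of T cell origin), 5 of them to each macrophage. Since the genotype is labelled in places as Kif13b-/- and in places as a knock down, KO stands for the libraries so labelled. Serum is labelled as 12, 13 and 14% for the KO libraries and as 10, 10 and 11% for the WT libraries, values that rise library by library and are in doubt. No label ties the 3 libraries of a group to separate animals or cultures, so the p-values speak only to the spread between libraries.

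Type I interferons bind the receptor IFNAR, whose kinases JAK1 and TYK2 activate a complex, ISGF3, that contains STAT2 and IRF9 and binds the interferon-stimulated response element (ISRE) in promoters. Interferon gamma has a receptor of its own, acts through the gamma-activated site (GAS) and induces an overlapping set of genes. Resting macrophages keep a low tonic level of this programme, which arms them against viruses and vacuolar pathogens before an infection.

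The promoters of the set were read first, because ISGF3 binds the response element there. RefSeq promoters of GRCm38.p6, which run from 250 bases before to 50 bases after a gene's start, were matched to 28 of the 37 genes by symbol. Dhx58, Ifi204, Mx1, Mx2, Oas2, Parp14, Rtp4, Usp18 and Zbp1 were not matched. The ISRE core was searched as GAAA, NN and GAAA in a row, and the GAS core as TTC, NNN and GAA in a row, on both strands, with overlapping copies counted. A TTTC, NN and TTTC run is the ISRE core on the other strand. The ISRE core stood in 17 of the 28 genes (60.7%), against 3.99% of the 27025 genes with a promoter in the same table. The GAS core stood in 8 of the 28 (28.6%), against 9.55% of all genes, and both cores stood in 5 of the 28 (17.9%), against 0.614%. The stretches below lie upstream of the start. Their capitals mark every ISRE core. Of the genes shown, Isg15, Ifit3, Oas1a, Bst2, Irgm1 and Igtp were lower in macrophages with apoptotic cells in both genotypes. Stat2, Gbp2 and Gbp3 were higher in both, and Oas3 was higher in KO + AC than in KO. Not every gene with an upstream core is shown. Ifit1, also lower in both genotypes, had cores that begin 104 and 85 bases before the start, and Rsad2 and Trim30a had upstream cores too.
Isg15, chr4:156200845-156200926, minus strand: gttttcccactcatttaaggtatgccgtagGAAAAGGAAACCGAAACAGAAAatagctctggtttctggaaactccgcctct
Ifit3, chr19:34583343-34583446, plus strand: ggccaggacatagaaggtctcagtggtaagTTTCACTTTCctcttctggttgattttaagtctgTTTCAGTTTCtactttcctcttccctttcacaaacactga
Oas1a, chr5:120907526-120907575, minus strand: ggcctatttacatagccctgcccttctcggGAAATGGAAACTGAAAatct
Bst2, chr8:71537557-71537632, minus strand: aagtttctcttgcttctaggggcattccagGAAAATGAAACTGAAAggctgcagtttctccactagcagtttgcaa
Irgm1, chr11:48871421-48871480, minus strand: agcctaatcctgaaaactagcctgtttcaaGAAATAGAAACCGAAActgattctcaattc
Igtp, chr11:58199492-58199555, plus strand: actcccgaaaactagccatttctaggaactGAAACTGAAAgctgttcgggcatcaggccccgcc
Stat2, chr10:128270248-128270315, plus strand: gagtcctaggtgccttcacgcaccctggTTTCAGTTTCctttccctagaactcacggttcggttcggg
Gbp2, chr3:142620574-142620643, plus strand: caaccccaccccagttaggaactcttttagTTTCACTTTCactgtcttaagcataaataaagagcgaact
Gbp3, chr3:142559969-142560043, plus strand: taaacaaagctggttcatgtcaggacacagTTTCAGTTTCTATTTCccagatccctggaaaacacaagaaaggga
Oas3, chr5:120777695-120777764, minus strand: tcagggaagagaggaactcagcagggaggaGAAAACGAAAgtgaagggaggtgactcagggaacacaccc
Isg15, which encodes a ubiquitin-like modifier, held 3 overlapping copies that begin 78, 72 and 66 bases before the start. In the Oas1a, Bst2, Irgm1 and Gbp3 stretches a pair of copies overlapped, and in the Ifit3 stretch they stood apart. The core stood in 9 of the 19 matched genes that were lower in both genotypes and in 6 of the 6 that were higher in at least 1. Both counts are partial. Parp14, Mx1, Ifi204 and Oas2 also rose in at least 1 genotype, and Dhx58, Rtp4, Usp18 and Zbp1 fell in both, but none was matched. In Ddx58, Ifitm3, Ifih1 and Eif2ak2 the core lay after the start. A match is a description of letters and not a measured binding site.

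Total counts per library ran from 17160248 to 17285594 in KO + AC, from 17000976 to 17256902 in WT + AC, from 18351051 to 18770757 in KO and from 18256622 to 18461359 in WT. Between 31787 and 32801 symbols were detected per library with apoptotic cells, and between 18335 and 18540 without. Each condition has its own count table, so condition and table cannot be told apart. Kif13b had 1697 to 1721 counts in KO + AC and 1561 to 1634 in WT + AC, against 281 to 424 in KO and 535 to 599 in WT. It was lower in KO than in WT (log2 fold change -0.59, edgeR adjusted p = 0.0087), but higher in the libraries labelled KO + AC than in WT + AC (0.13, edgeR adjusted p = 0.0261). The count was thus not lower where the label gives Kif13b as lost, and the genotype itself was not tested. KO + AC therefore means only the libraries so labelled. Pairs of libraries within a group differed by more than sampling noise, with a chi-square per degree of freedom of 4.96 to 35.5 without and 1.40 to 1.93 with apoptotic cells. KO library 3 stood closer to WT library 1 (8.42) than to KO libraries 1 and 2 (22.7 and 35.5). The macrophage markers Adgre1, Csf1r, Cd68, Itgam, Mertk, Fcgr1, Lyz2 and Cd14 all had counts in every group.

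Together the 37 genes made up 0.102 to 0.103% of all counts in KO + AC, 0.0967 to 0.104% in WT + AC, 0.101 to 0.113% in KO and 0.111 to 0.113% in WT. Levels of different genes are given in CPM (counts in every 1000000 after library scaling) per kb of exon. Ifitm3, which blocks the entry of enveloped viruses (chromosome 7, 141009586 to 141010770, minus strand), was the highest of the set. It had 127, 124 and 131 CPM per kb in KO + AC, 143, 144 and 143 in WT + AC, 520.3, 373 and 312 in KO, and 375, 390.0 and 356 in WT. Every library with apoptotic cells was below every library without. Bst2, or tetherin, which holds budding viruses at the cell surface (chromosome 8, 71534255 to 71537456, minus strand), was the next. It had 45.9, 43.8 and 46.8 CPM per kb in KO + AC, 37.6, 40.4 and 42.3 in WT + AC, 169, 178 and 108 in KO, and 106, 125 and 121 in WT. The KO and WT libraries overlapped, since KO library 3 lay among the WT libraries. Oas1a, an oligoadenylate synthetase that activates RNase L (chromosome 5, 120896256 to 120907521, minus strand), had 18.2, 16.4 and 18.1 CPM per kb in KO + AC, 15.1, 16.3 and 17.9 in WT + AC, 57.4, 67 and 51.2 in KO, and 49.7, 50.3 and 42.5 in WT. Per length, Ifi204 came next, with a mean over the 12 libraries of 31.4 CPM per kb against 35 for Oas1a. The order of these neighbours depended on the group, since Ifi204 was above Oas1a in the libraries with apoptotic cells and below it in those without. At the low end stood Mx2, at 0.231 CPM per kb, and Ifi44, at 0.0604. Ifi44, an interferon-induced cytoplasmic protein, had 3 to 9 counts in every library and fell under the filter on low counts, so 36 of the 37 genes were tested. Mx2, which the annotation lists as a polymorphic pseudogene, had 5 to 22 counts, and Ifit3 had 12 to 21 counts with apoptotic cells.

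**Figure D1:**
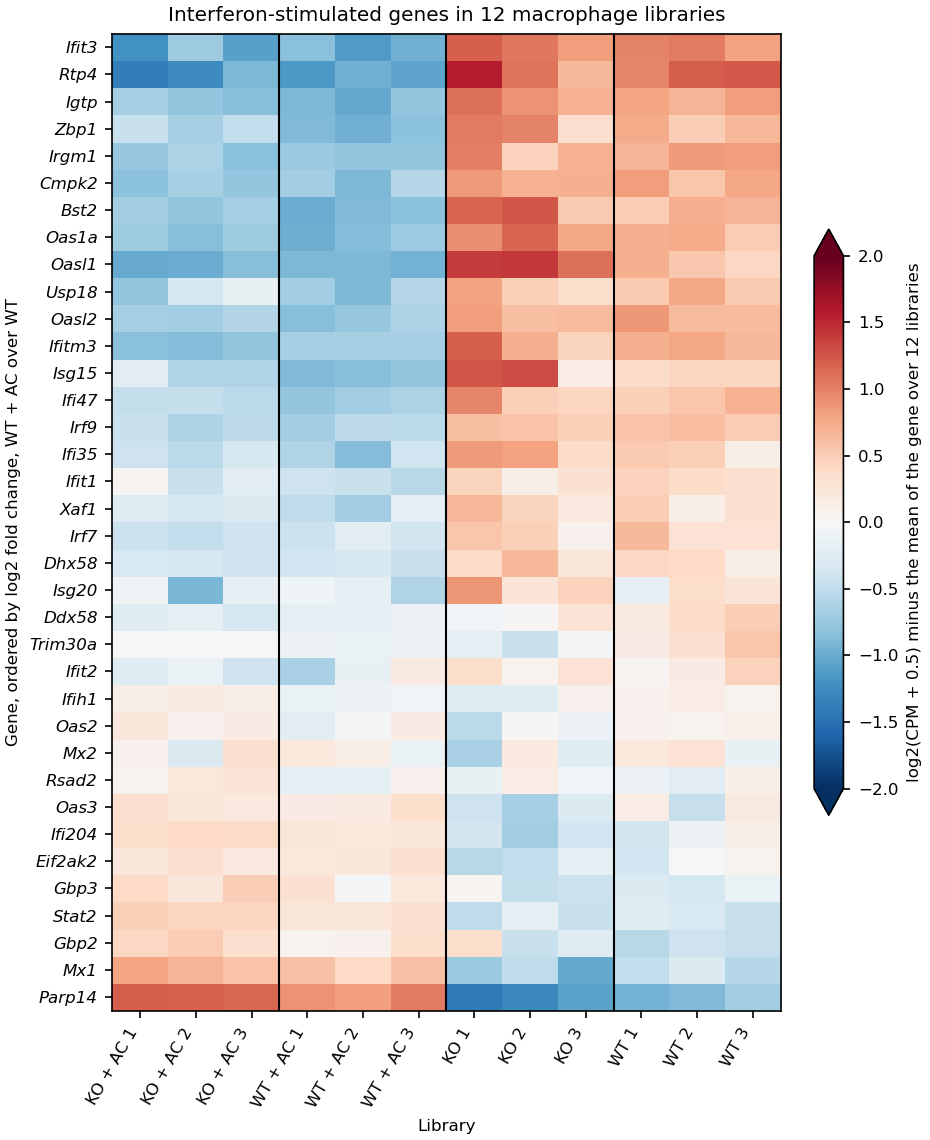
Each row is 1 of the 36 tested genes and each column 1 library, grouped as KO + AC, WT + AC, KO and WT, and the colour gives log2(CPM + 0.5) minus the mean of the gene over the 12 libraries. Rows are ordered by the log2 fold change of WT + AC over WT, so that Ifit3 stands at the top (-2.44) and Parp14 at the bottom (1.77).

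For reads that could belong to several genes, 12 of the 37 share exonic bases with another annotated gene. On the same strand, Parp14 shares 110 bases with Gm49730, Rtp4 296 with Gm45338, Igtp 162 with Irgm2, Irf9 123 with Rnf31 and Ifi47 111 with Olfr56. On the opposite strand, Oasl1 shares 38 with Gm13822 and Gbp2 24 with Mir6381, and Irf7, Usp18, Ifi35, Ifi47, Eif2ak2 and Dhx58 also share 45 to 290 bases with another gene. Neither the strand setting nor the counting of shared reads is given in the sources used here. The Oas, Ifi200, Gbp, Irg, Ifit and Trim30 families hold similar copies, so the split of reads between such copies is uncertain. The AC groups were also kept with human Jurkat cells, while the mouse build mm10 is the only build named. How many human reads were counted under these mouse symbols was not tested.

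The first question is how the set differed between macrophages with and without apoptotic cells. Most of the genes were lower with apoptotic cells, in both genotypes, and a smaller group was higher. The falls took in the Ifit genes, Isg15 and Usp18, Oas1a and its relatives Oasl1 and Oasl2, the immunity-related GTPases, and the factors Irf7 and Irf9. The rises took in Parp14, Mx1, Stat2, Ifi204, Eif2ak2, Gbp2 and Gbp3. In KO macrophages 23 of 36 fell and 10 rose, where 36.7% of the 16810 genes tested fell, 49.6% rose and 86.3% were called in all. In WT macrophages 24 of 36 fell and 7 rose, where 36.7% of all genes fell, 48.3% rose and 85% were called. The libraries with and without apoptotic cells did not overlap for 33 of the 36 genes in KO, 10 of them higher and 23 lower, where 86.7% of all genes did not overlap (50.1% higher and 36.6% lower). In WT they did not overlap for 30, 7 higher and 23 lower, where the share was 86.6% (49.3% higher and 37.4% lower). Most genes of the whole table were thus called in this comparison. The median log2 fold change of the set was -0.83 in KO and -0.79 in WT, against 0.32 and 0.25 over all genes. With the size factors of DESeq2 the medians over all genes were 0.41 and 0.36. The calls coincided for most genes of the set: the 23 that fell in KO were 23 of the 24 that fell in WT, and 7 of the 10 that rose in KO were all 7 that rose in WT. How often the calls of all genes coincided was not counted. With 86.3% of all genes called in KO and 85% in WT, this overlap is not particular to the set. In bulk RNA, fewer cells of a type and less RNA per cell cannot be told apart. The 8 macrophage markers were split, with 4 higher and 4 lower in KO and 3 higher and 5 lower in WT. Their summed level was lower with apoptotic cells, at 15440 to 15729 CPM in KO + AC and 12773 to 13550 in WT + AC, against 30546 to 38054 in KO and 30060 to 32587 in WT. In KO + AC and KO most of this sum was Lyz2, at 10736 CPM in KO + AC against 28671 in KO. The 4 that rose in KO were Adgre1, Csf1r, Itgam and Cd14, so the sum does not measure macrophage content. The 12 T cell markers, which Jurkat cells could also give, had 7 of 8 tested genes higher and 1 lower in each genotype, with a median log2 fold change of 5.82 in KO and 6.00 in WT. They summed to 71.1 to 78.4 CPM in KO + AC and 76.9 to 86.8 in WT + AC, against 43.5 to 58.4 in KO and 29.4 to 38.4 in WT. Most of the sum without apoptotic cells was Lat, the 1 that fell, at 14.4 CPM in KO + AC against 51.4 in KO and at 17.2 in WT + AC against 33.5 in WT. Rag1 was at 0 in KO, and Cd3d and Rag1 in WT. The 12 fibroblast and stroma markers had 10 lower and 1 higher in KO (median -2.16) and 9 lower and 3 higher in WT (median -0.93), with sums of 274 to 295 CPM in KO + AC and 396 to 435 in WT + AC, against 1026 to 1327 in KO and 677 to 835 in WT. The part of these markers in the differences was not tested.

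Among the transcription factors, Irf7, which amplifies interferon production, fell in both genotypes, by 0.85 in KO and by 0.76 in WT on the log2 scale. Irf9, the DNA-binding subunit of ISGF3, had 22.6 ± 1.29 CPM in KO + AC against 48.3 ± 2.21 in KO (SD, n = 3 each), and 21.7 ± 1.49 in WT + AC against 48.8 ± 1.93 in WT. Its partner Stat2 rose instead, by 0.83 in KO and by 0.60 in WT. It had 43.0 ± 0.711 CPM in KO + AC against 24.2 ± 3.04 in KO, and 37.9 ± 0.968 in WT + AC against 25.0 ± 1.80 in WT. The mRNAs of these partners in ISGF3 thus changed in opposite directions.

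The sensors were split in the same way. Ifi204, a DNA-binding PYHIN protein, rose by 0.85 in KO and by 0.34 in WT, and Eif2ak2, the kinase PKR that halts translation on double-stranded RNA, rose by 0.67 and by 0.35. Without WT library 1 the WT value of Eif2ak2 missed the threshold (edgeR adjusted p = 0.0593). Zbp1, a sensor of Z-form nucleic acids that can start necroptosis (chromosome 2, 173206612 to 173218923, minus strand), fell in both. It had 5.04, 4.27 and 4.89 CPM in KO + AC against 14.9, 14.5 and 8.96 in KO, and 3.61, 3.38 and 3.79 in WT + AC against 12.0, 10.1 and 11.4 in WT. KO library 3 was the lowest of the 6 libraries without apoptotic cells and still lay above every library with them. The RIG-I-like receptors were less uniform. Ddx58, which encodes RIG-I, fell by 0.34 in KO and by 0.52 in WT, and Dhx58, which encodes LGP2, fell by 0.81 and by 0.72. Ifih1, which encodes MDA5, rose by 0.27 in KO and was at -0.21 in WT, where it was not called (edgeR adjusted p = 0.0549). The rise of Ifih1 in KO was lost when KO library 1, KO library 2 or KO + AC library 2 was left out and with no filter on low counts.

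The Ifit genes, which bind foreign RNA and block its translation, all fell. Ifit3 (chromosome 19, 34583531 to 34588731, plus strand) had the largest fall of the set in both genotypes. It had 0.63, 1.09 and 0.728 CPM in KO + AC against 5.5, 4.95 and 4.15 in KO, a log2 fold change of -2.56 (SE 0.22, edgeR adjusted p = 1.78e-11). It had 0.965, 0.696 and 0.848 CPM in WT + AC against 4.67, 4.90 and 4.09 in WT (-2.44, SE 0.22, edgeR adjusted p = 4.48e-11). No library with apoptotic cells reached the lowest library without them. Ifit1 fell by 0.57 in KO and by 1.02 in WT, and Ifit2 by 0.55 and by 0.44. The WT and WT + AC libraries of Ifit2 overlapped, and its call was lost without WT library 3, without WT + AC library 1 and with DESeq2.

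In the Oas family, Oas1a, Oasl1 and Oasl2 fell in both genotypes. Oasl1, which in mice restrains the translation of Irf7 (chromosome 5, 114923240 to 114937915, plus strand), had 7.71, 7.81 and 8.68 CPM in KO + AC against 43.3, 43.8 and 34.9 in KO. That is a log2 fold change of -2.33 (SE 0.12, edgeR adjusted p = 1.09e-16). It had 8.38, 8.40 and 8.13 CPM in WT + AC against 26.6, 23.7 and 21.6 in WT (-1.53). The 6 libraries with apoptotic cells stood within a narrow range, while KO and WT without them did not overlap. Oas1a had 34.2, 30.9 and 34.1 CPM in KO + AC against 108, 126 and 96.5 in KO (-1.74, SE 0.10, edgeR adjusted p = 6.81e-15). It had 28.4, 30.8 and 33.8 CPM in WT + AC against 93.6, 94.8 and 80.1 in WT (-1.53). Oasl2, like Oasl1 a relative of the synthetases, fell by 1.37 in KO and by 1.48 in WT. Oas2 and Oas3, larger synthetases of the same family, rose in KO, by 0.38 and 0.71. In WT they were at -0.12 and 0.26 and were not called, though DESeq2 called Oas3 there (0.37, adjusted p = 0.0144). The rise of Oas2 in KO was lost without KO library 1, without KO + AC library 1 and with no filter on low counts.

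Isg15 and Usp18, the protease that removes ISG15 and blunts signalling at IFNAR, fell in both genotypes. Isg15 had 6.53 ± 1.08 CPM in KO + AC against 18.9 ± 7.46 in KO, and 4.93 ± 0.186 in WT + AC against 12.5 ± 0.300 in WT. Usp18 fell by 1.06 in KO and by 1.49 in WT. Mx1, a dynamin-like GTPase whose intact form blocks influenza virus in mice, rose in both genotypes. It had 6.85 ± 0.581 CPM in KO + AC against 2.25 ± 0.488 in KO (1.61), and 6.10 ± 0.503 in WT + AC against 2.89 ± 0.369 in WT (1.08). Its relative Mx2 was not called in either genotype (0.41 with SE 0.37 in KO and -0.08 with SE 0.33 in WT).

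The interferon-inducible GTPases divided by family. Gbp2 and Gbp3, guanylate-binding proteins that attack pathogen vacuoles, rose by 0.50 and 0.67 in KO and by 0.67 and 0.45 in WT, with Gbp2 in KO library 1 inside the KO + AC range. The immunity-related GTPases Irgm1, Igtp and Ifi47 fell, Ifi47 by 1.18 in KO and by 1.33 in WT. Igtp (chromosome 11, 58199556 to 58207591, plus strand) had 5.56, 5.16 and 4.84 CPM in KO + AC against 20.2, 17.4 and 15.1 in KO (-1.76, SE 0.13, edgeR adjusted p = 6.74e-13). It had 4.67, 4.23 and 5.13 CPM in WT + AC against 16.1, 14.9 and 16.6 in WT (-1.76, SE 0.13, edgeR adjusted p = 9.7e-13). Irgm1, a regulator of the family (chromosome 11, 48861968 to 48871683, minus strand), had 23.0, 25.0 and 21.7 CPM in KO + AC against 79.7, 54.1 and 63.8 in KO (-1.50). It had 23.1, 22.5 and 22.5 CPM in WT + AC against 63.0, 71.2 and 70.6 in WT (-1.59). In neither gene did a library with apoptotic cells overlap one without.

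Of the other antiviral effectors, Ifitm3, Bst2, Cmpk2 and Isg20 fell in both genotypes. Cmpk2, a mitochondrial nucleotide kinase, fell by 1.66 in KO and by 1.59 in WT, and Bst2 fell by 1.74 and by 1.55. Isg20, an exonuclease, fell by 1.05 and by 0.53, with 22 to 48 counts per library with apoptotic cells. Its WT and WT + AC libraries overlapped, and its WT call (edgeR adjusted p = 0.0488) was lost with DESeq2 and when WT library 2 or 3 or WT + AC library 2 or 3 was left out. Rsad2, or viperin, which makes a chain-terminating nucleotide and stands beside Cmpk2 on chromosome 12, was not called in either genotype (0.21 with SE 0.11 in KO and -0.021 with SE 0.12 in WT), though DESeq2 called it in KO (0.30, adjusted p = 0.024).

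Among the remaining genes, Parp14, a mono-ADP-ribosyltransferase (chromosome 16, 35832874 to 35871544, minus strand), had the largest rise of the set. It had 168, 164 and 161 CPM in KO + AC against 27.0, 29.2 and 34.3 in KO (2.44, SE 0.10, edgeR adjusted p = 1.78e-18). It had 136, 128 and 149 CPM in WT + AC against 37.5, 39.0 and 44.7 in WT (1.77, SE 0.10, edgeR adjusted p = 1.4e-15). Every library with apoptotic cells was above every library without. Rtp4, a chaperone of membrane receptors (chromosome 16, 23520291 to 23614222, plus strand), had 3.52, 3.85 and 5.15 CPM in KO + AC against 30.7, 21.8 and 15.9 in KO (-2.44). It had 4.27, 4.92 and 4.59 CPM in WT + AC against 20.3, 24.0 and 24.0 in WT (-2.31). The KO libraries of Rtp4 spread most, yet the lowest of them lay above every library with apoptotic cells. Xaf1, which opposes the apoptosis inhibitor XIAP, fell by 0.77 in KO and by 0.82 in WT, and Ifi35, a leucine zipper protein, fell by 1.15 and by 1.03. Trim30a, which in mice dampens Toll-like receptor signalling, fell in WT (-0.48) and was at 0.22 in KO (edgeR adjusted p = 0.0572), where DESeq2 called it higher (0.31, adjusted p = 0.00821).

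**Figure D2:**
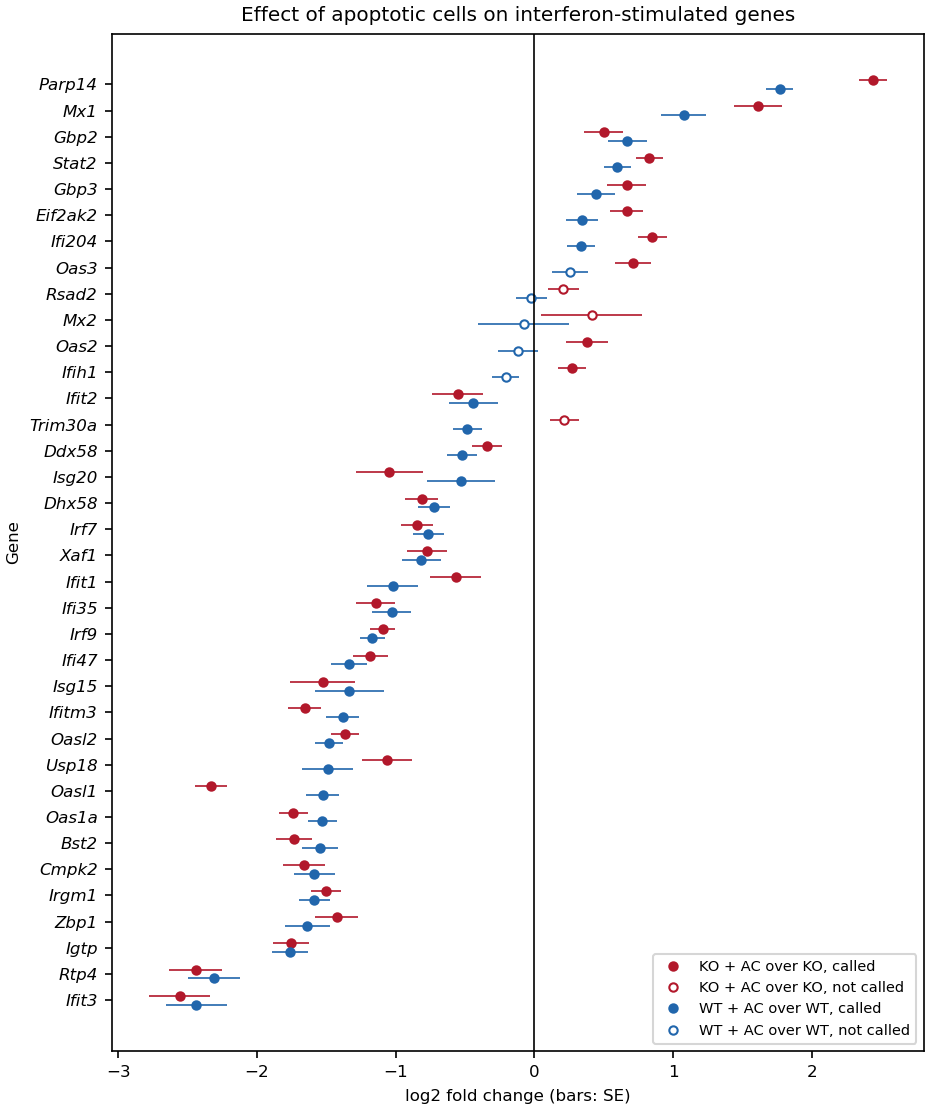
Points give the log2 fold change of KO + AC over KO (red) and of WT + AC over WT (blue) for each tested gene, bars are the SE, and filled points passed an edgeR adjusted p of 0.05. Ifit3 and Rtp4 lie farthest to the left and Parp14 farthest to the right in both genotypes, and the largest gaps between the genotypes are at Oasl1, Trim30a and Parp14.

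Gene length moved with these values. Across the 36 genes the log2 fold change with apoptotic cells rose with log2 exonic length (Pearson r = 0.57 in KO and 0.50 in WT), while across all genes the correlation was -0.26 and -0.31, and -0.11 and -0.19 among genes of at least 2 CPM. Genes of the set under 2000 bases had a median of -1.66 in KO and -1.38 in WT (n = 7), and those over 5000 bases 0.27 and -0.21 (n = 9). Medians by length class rose for all genes of at least 2 CPM too, with -0.73 in KO and -0.56 in WT under 2000 bases and 0.41 and 0.27 over 5000 bases. A correction for exonic length and GC content left 19 of the 36 lower and 12 higher in KO, and 21 lower and 8 higher in WT. The median of the set was then -0.26 in KO and -0.44 in WT. The correction ended the call of Ifit2, Usp18, Isg20 and Dhx58 in KO and of Ifit1 and Isg20 in WT. It turned the sign of Ifit1 (0.22) and Ifih1 (-0.21) in KO and of Ifit2 (0.0999), Rsad2 (0.30) and Trim30a (0.037) in WT, and of these it called Ifih1 lower and Rsad2 higher. Of the called genes 27 of 33 in KO and 27 of 31 in WT kept call and sign under it, but their sizes moved. Of these, 9 in KO and 7 in WT shrank by over 1.5 times on the log2 scale, and 5 and 3 grew by as much. In KO, Oas1a was then at -0.74, Igtp at -0.79, Zbp1 at -0.83, Rtp4 at -1.49 and Ifit3 at -1.69. In WT, Oas1a was at -0.76, Igtp at -0.93 and Rtp4 at -1.47. The rises of Gbp2 and Gbp3 grew to 1.33 and 1.24 in KO and to 1.5 and 1.08 in WT.

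**Figure D3:**
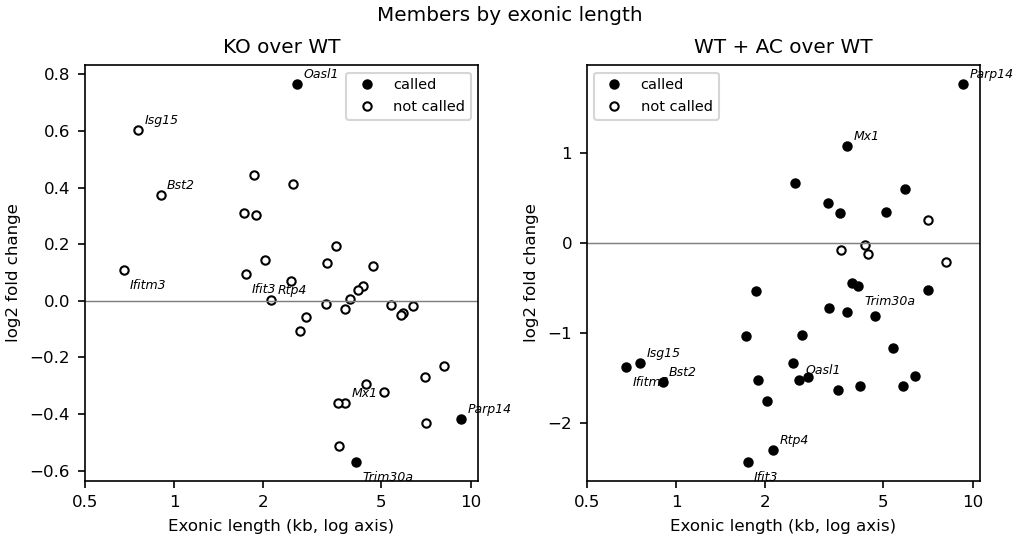
Each point is 1 tested gene, with its exonic length in kb on a log axis and its log2 fold change for KO over WT (left) and WT + AC over WT (right), and filled points passed an edgeR adjusted p of 0.05. On the left the median is 0.31 for genes under 2000 bases and -0.23 for those over 5000 bases (r = -0.63 over 36 genes), and on the right these medians are -1.38 and -0.21, with single genes of every length among the low values.

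The genes around the set in the pathway changed more unevenly. Over all genes tested, 49.6% rose and 36.7% fell in KO, and 48.3% rose and 36.7% fell in WT. None of the 21 interferon genes in both tables passed the filter. Without apoptotic cells the only counts were 2 of Ifnz in KO library 2. A count of 0 allows up to 3 counts in a library, for counting error only. With them, Ifnb1 had 1, 1 and 2 counts in KO + AC and 0 in every WT + AC library, and Ifnl2 had 7, 1 and 6 in KO + AC and 4, 11 and 6 in WT + AC. Levels this low were not tested. Of the 5 tested receptor genes 2 rose and 3 fell in each genotype. Ifnar1, a chain of the type I receptor, had 401 ± 14.6 CPM in KO + AC against 107 ± 10.5 in KO, and 339 ± 8.40 in WT + AC against 115 ± 8.44 in WT. Ifngr2 of the interferon gamma receptor fell, by 0.87 in KO and by 0.77 in WT. The gene of the kinase JAK2, Jak2, rose by 3.52 in KO and by 2.73 in WT. Among the other interferon regulatory factors, Irf1 rose by 2.72 in KO and by 2.40 in WT, while Irf8, a factor of the macrophage lineage, fell by 2.23 and by 2.0. The feedback inhibitor Socs3 rose by 4.90 in KO and by 4.56 in WT.

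A second list of 51 interferon-stimulated genes outside the set gave 18 rises and 20 falls among 45 tested in KO, and 17 rises and 25 falls in WT. Its medians were 0.021 in KO and -0.38 in WT, against 0.32 and 0.25 over all genes. Ifi205, a relative of Ifi204, had 111 ± 3.21 CPM in KO + AC against 2.30 ± 0.573 in KO, and 70.6 ± 3.54 in WT + AC against 2.30 ± 0.292 in WT. Helz2 and Slfn8 also rose, by 3.92 and 3.37 in KO and by 3.68 and 2.47 in WT. Of 17 tested genes that respond mainly to interferon gamma, 7 rose and 9 fell in KO, and 7 rose and 7 fell in WT. Gbp5, which promotes inflammasome assembly, rose by 6.32 in KO and by 5.97 in WT, while the immunoproteasome subunit Psmb10 fell by 2.0 and by 1.72.

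The next comparison asks whether the set differed between KO and WT macrophages without apoptotic cells. It largely did not pass the test. Oasl1 was higher in KO, Trim30a and Parp14 were lower, and the other 33 tested genes were not called. Higher calls came to 1 of 36, where 7.94% of the 12640 genes tested were higher, and lower calls to 2 of 36, where 8.24% were lower and 16.2% were called in all. The KO and WT libraries did not overlap for 5 of the 36, 2 higher (16.4% of all genes) and 3 lower (17.2%), where the whole share was 33.6%. The median log2 fold change was -0.0046, against 0.024 over all genes. CPM here are scaled within the table without apoptotic cells, so they differ from the jointly scaled values above. Oasl1 had 37.3, 37.9 and 29.9 CPM in KO against 22.8, 20.4 and 18.6 in WT (log2 fold change 0.77, SE 0.14, edgeR adjusted p = 0.00144). The groups did not overlap, and the call was kept when any 1 library was left out. With KO library 3 as the only KO library, the log2 fold change of Oasl1 was 0.54 (SE 0.15, edgeR adjusted p = 0.156). There the WT libraries alone gave the spread, and the lone KO library was taken to vary like them. Trim30a (chromosome 7, 104409025 to 104465193, minus strand) had 31.0, 26.0 and 34.7 CPM in KO against 39.7, 43.9 and 52.5 in WT (-0.57, SE 0.14, edgeR adjusted p = 0.0111). Parp14 had 23.3, 25.3 and 29.4 CPM in KO against 32.2, 33.5 and 38.5 in WT (-0.42, SE 0.13, edgeR adjusted p = 0.0357). Neither gene's groups overlapped, and the call of Trim30a was lost without KO library 1 or WT library 3, and that of Parp14 without KO library 1 or 2 or WT library 2 or 3.

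Isg15 and Bst2 missed the threshold and were picked out after their values were seen, since KO library 3 differed from the other KO libraries in both. Isg15 had 19.7, 20.4 and 8.83 CPM in KO against 10.4, 10.8 and 10.9 in WT (0.60, SE 0.24, edgeR adjusted p = 0.0952). KO libraries 1 and 2 were above every WT library and KO library 3 was below them. Without KO library 3 the log2 fold change of Isg15 was 0.86 (edgeR adjusted p = 0.000337). Bst2 had 132, 139 and 83.8 CPM in KO against 81.8, 96.9 and 94.4 in WT (0.37, edgeR adjusted p = 0.0858), and 0.53 without KO library 3 (edgeR adjusted p = 0.00219). Leaving out KO library 3 brought the calls of the 36 genes to 5 higher and 7 lower (33.3%), where 32.4% of all genes tested were then called.

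Length moved with genotype as well. Across the 36 genes the log2 fold change of KO over WT fell with log2 exonic length (r = -0.63), as it did across 12530 genes (r = -0.35). Genes of the set under 2000 bases had a median of 0.31 and those over 5000 bases of -0.23. With the correction for length and GC content Oasl1 was at 0.49 (edgeR adjusted p = 0.00482), while Trim30a (-0.29, edgeR adjusted p = 0.0587) and Parp14 (-0.23, edgeR adjusted p = 0.113) were no longer called. Of the 12 fibroblast and stroma markers 8 were higher in KO and none lower, and they summed to 887 to 1137 CPM in KO and 584 to 716 in WT, and mitochondrial genes took 0.578 to 1.23% of counts in KO and 1.42 to 2.52% in WT. The part of these in the differences was not tested.

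Around the set, genes that respond mainly to interferon gamma had 5 of 15 tested higher in KO and none lower. Over all genes tested, 7.94% were higher and 8.24% lower. The counts and values of this paragraph are without the correction for length and GC content. That correction cut the calls over all genes from 2045 to 946. Of the 5 higher genes, Psmb8, an immunoproteasome subunit, had 95.5 ± 23.7 CPM in KO against 62.7 ± 2.90 in WT (0.61, edgeR adjusted p = 0.0109). The class I gene H2-K1 was at 0.42 (edgeR adjusted p = 0.0441). Of the 45 tested genes of the second list of interferon-stimulated genes, 1 was higher and 5 were lower, among them Samd9l (-0.73) and Ifi207 (-0.66). The endosomal RNA receptor Tlr7 was lower, at 43.0 ± 9.79 CPM in KO against 74.2 ± 10.4 in WT (-0.79, edgeR adjusted p = 0.00235), and so was the kinase gene Jak2 (-0.56, edgeR adjusted p = 0.0175).

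**Figure D4:**
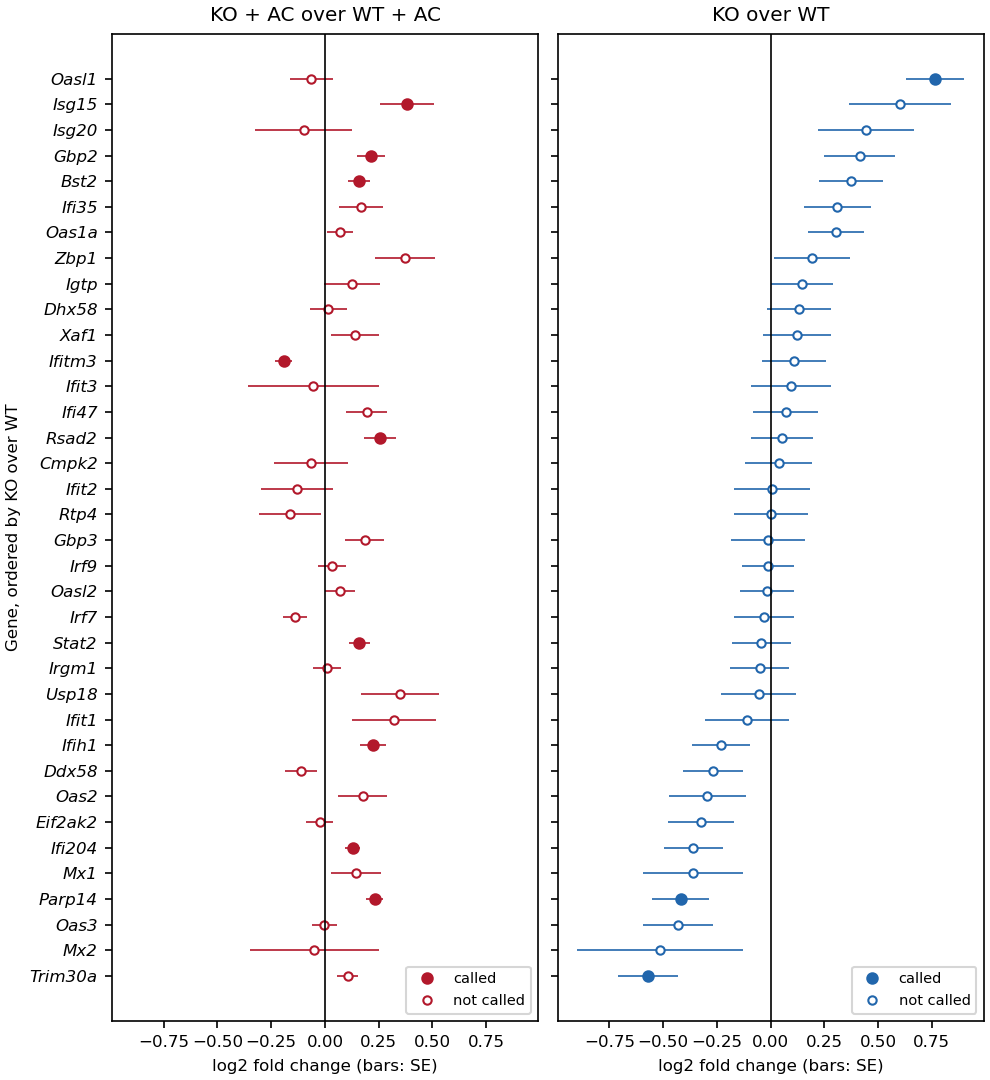
Points give the log2 fold change of KO + AC over WT + AC (left) and of KO over WT (right) for each tested gene, ordered by KO over WT, with the SE as bars and filled points for an edgeR adjusted p under 0.05. The bars are shorter on the left, where every value lies within 0.4 of 0, and Oasl1 stands highest on the right but was not called on the left.

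With apoptotic cells the libraries labelled KO + AC had slightly more of several of these RNAs than WT + AC. Isg15, Rsad2, Parp14, Ifih1, Gbp2, Stat2, Bst2 and Ifi204 were higher and Ifitm3 was lower. By label these libraries lack Kif13b, whose count was not lower in them. These were 8 of 36, where 6.58% of the 16467 genes tested were higher, and 1 of 36, where 4.75% were lower and 11.3% were called in all. The groups did not overlap for 11 of the 36, 9 higher (13% of all genes) and 2 lower (13.4%), where the whole share was 26.4%. The differences were small, from 0.13 to 0.38 among the higher genes, and the median was 0.11, against -0.02 over all genes. The spread between these libraries was also small, with a common biological coefficient of variation of 0.0294, against 0.117 without apoptotic cells. Isg15 (chromosome 4, 156199424 to 156200818, minus strand) had 8.80, 6.75 and 6.64 CPM in KO + AC against 5.5, 5.59 and 5.93 in WT + AC (0.38, SE 0.13, edgeR adjusted p = 0.0386). Parp14 had 191, 186 and 182 CPM in KO + AC against 157, 147 and 172 in WT + AC (0.23, SE 0.041, edgeR adjusted p = 9.67e-05). For both genes every KO + AC library was above every WT + AC library.

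Ifih1 (chromosome 2, 62595798 to 62646255, minus strand) had 29.9, 31.4 and 30.02 CPM in KO + AC against 25.4, 25.8 and 27.1 in WT + AC (0.22, SE 0.061, edgeR adjusted p = 0.00963). Rsad2 (chromosome 12, 26442746 to 26456452, minus strand) had 22.2, 24.6 and 25.4 CPM in KO + AC against 18.9, 18.6 and 22.9 in WT + AC (0.26, SE 0.075, edgeR adjusted p = 0.0162). Gbp2 (chromosome 3, 142620602 to 142638008, plus strand) had 42.1, 45.4 and 39.9 CPM in KO + AC against 34.0, 34.1 and 41.5 in WT + AC (0.22, SE 0.065, edgeR adjusted p = 0.0267). In Rsad2 and Gbp2 WT + AC library 3 lay within the KO + AC range, whereas the Ifih1 groups did not overlap. Ifitm3 had 97.7, 95.8 and 100.5 CPM in KO + AC against 111, 112 and 112 in WT + AC (-0.19, SE 0.039, edgeR adjusted p = 0.000324), again without overlap. In the fit of all 12 libraries, which takes 1 spread for both conditions, none of the 36 was called by edgeR. There, 4 were higher and 0 lower at an unadjusted p under 0.05, and the 9 genes had adjusted p-values of 0.266 to 0.76. DESeq2 on the 6 libraries called 2 of the 36 higher, where 4.89% of all genes were higher. Leaving out 1 library left 2 to 7 of the 36 higher. The 2 came without WT + AC library 2, where 4.47% of all genes were higher. The 7 came without WT + AC library 3, where that share was 5.58%. Only Parp14 and Ifitm3 kept their calls whichever library was left out.

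Further parts of the pathway leaned the same way in the libraries labelled KO + AC. Over all genes tested, 6.58% were higher and 4.75% lower. The counts that follow come from the fit of the 6 libraries. The fit of all 12 libraries called only 157 of 16810 genes in this comparison. Of the 5 tested receptor genes 4 were higher than in WT + AC and none was lower, and Ifnar1 had 454 ± 17.2 CPM in KO + AC against 391 ± 11.0 in WT + AC (0.22, edgeR adjusted p = 6.29e-06). Among 14 tested genes of sensing upstream of interferon 6 were higher, with Tlr7 at 169 ± 12.2 CPM in KO + AC against 127 ± 9.44 in WT + AC (0.41). Irf1 was higher (0.34), and 8 of 15 tested genes that respond mainly to interferon gamma were higher, including H2-K1 (0.28), H2-D1 (0.25) and B2m (0.19) of class I antigen presentation. In the second list of interferon-stimulated genes 13 of 45 were higher and 1 was lower, led by Ifi205 (0.63) and the chemokine gene Ccl5 (0.44). In these libraries the macrophage markers had 5 of 8 higher and the fibroblast and stroma markers 6 of 11 lower. Scaled within this table, the macrophage markers summed to 17554 to 17815 CPM in KO + AC against 14656 to 15619 in WT + AC, and those of fibroblasts and stroma to 311 to 333 CPM in KO + AC against 456 to 502 in WT + AC. Their part in the differences was not tested.

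The last comparison asks whether the genotype difference itself differed between the conditions, as an interaction in the fit of 12 libraries. Parp14, Trim30a, Ifi204 and Ifih1 had a higher and Oasl1 a lower difference with apoptotic cells. These were 4 of 36, where 7.55% of the 16810 genes tested were higher, and 1 of 36, where 5.13% were lower and 12.7% were called in all. Oasl1 had an interaction of -0.80 on the log2 scale (SE 0.16, edgeR adjusted p = 0.00219), Trim30a of 0.70 (SE 0.15, edgeR adjusted p = 0.00283) and Parp14 of 0.67 (SE 0.14, edgeR adjusted p = 0.00197). These 3 kept their calls under all 18 alternatives, although the values fell to -0.54, 0.40 and 0.48 with the correction for length and GC content. Trim30a had 41.5, 41.0 and 41.3 CPM in KO + AC, 37.8, 37.5 and 37.8 in WT + AC, 35.9, 30.1 and 40.4 in KO, and 46.3, 51.0 and 60.9 in WT. KO + AC was above WT + AC and KO below WT, with no overlap in either pair. The Trim30a libraries lay close together with apoptotic cells and apart without them.

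Ifi204 (chromosome 1, 173747293 to 173766943, minus strand) had 139, 143 and 142 CPM in KO + AC, 129, 125 and 127 in WT + AC, 84.4, 66.8 and 83.4 in KO, and 83.6, 100.2 and 118 in WT. Its interaction was 0.51 (SE 0.14, edgeR adjusted p = 0.0196). Ifih1 had 26.4, 27.6 and 26.6 CPM in KO + AC, 22.0, 22.5 and 23.4 in WT + AC, 20.4, 20.5 and 25.9 in KO, and 25.8, 27.0 and 25.5 in WT, with an interaction of 0.48 (SE 0.14, edgeR adjusted p = 0.025). KO library 3 lay within the WT range for Ifih1, and the KO and WT libraries overlapped for Ifi204. Leaving out KO library 2, WT library 3, KO + AC library 2 or WT + AC library 2 ended the call of Ifi204. The call of Ifih1 was lost in 11 of 18 alternatives, among them no filter on low counts and the leaving out of KO library 1 or 2, WT library 2, any KO + AC library, or WT + AC library 1 or 2. Under the correction for length and GC content Ifi204 (0.23, edgeR adjusted p = 0.104) and Ifih1 (0.17, edgeR adjusted p = 0.334) were not called. Log2 exonic length and the interaction rose together across the 36 genes (r = 0.58). Neighbours in the pathway that were called in the same direction included Tlr7 (1.22), Samd9l (1.02), Slfn8 (0.90) and Jak2 (0.80).

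**Figure D5:**
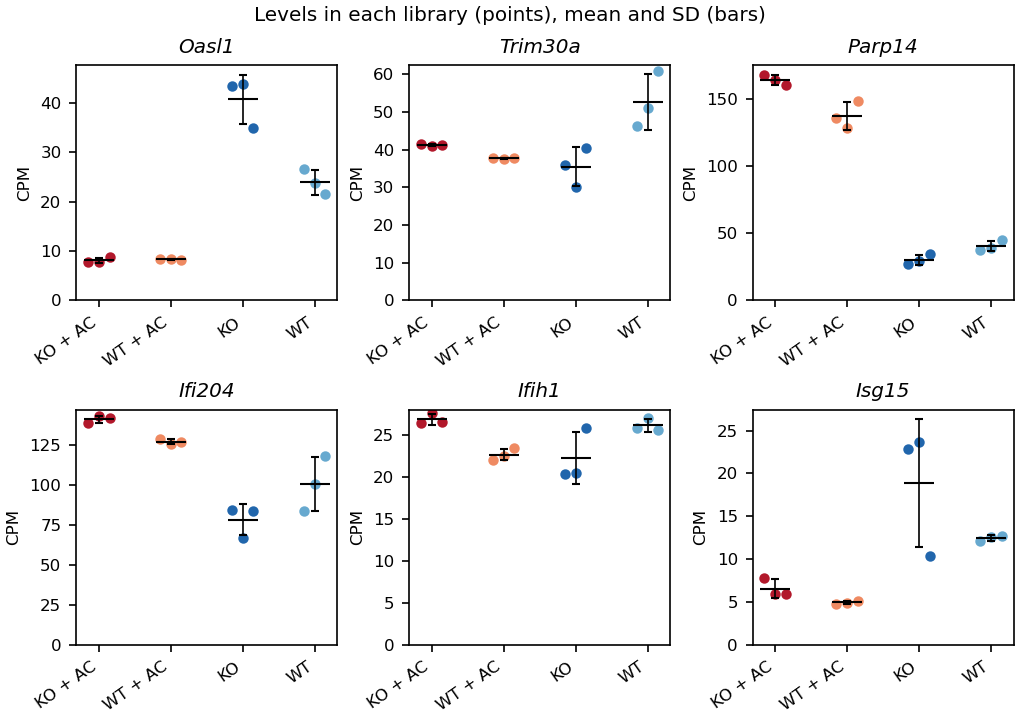
Points are libraries in the order KO + AC, WT + AC, KO and WT, on a CPM axis that starts at 0 with all 12 libraries scaled together, and bars give the mean and SD of 3 libraries. Oasl1 is alike in both groups with apoptotic cells and higher in KO than in WT without them, Trim30a, Parp14, Ifi204 and Ifih1 change order between the conditions, and Isg15 shows KO library 3 apart from the other KO libraries.

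By sign, 16 of the 36 genes (44.4%) had the same direction of the genotype difference with and without apoptotic cells, beside 44.5% of the 12125 genes tested in both. With the labels KO + AC and WT + AC exchanged, it would be 20 of the 36 (55.6%), beside 55.5% of all genes. That value follows from turning every sign and does not test the labels. Of the genes, 13 were below 0 in KO over WT and above 0 in KO + AC over WT + AC, and 7 were the other way round.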

How the data were processed

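RNA sequencing libraries of mouse bone marrow-derived macrophages were analysed as 4 groups of 3. The authors deposited raw read counts per gene symbol in 2 tables, 1 without and 1 with apoptotic cells. Per the submitters' processing notes, fastp, HISAT2 2.0.5, DESeq2 1.20.0 and the mm10 build were used, and the counting tool is not given in the sources used here. All sample columns were used.

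Genotype was tested within each table, and apoptotic cells and the interaction in a joint fit of the 12 libraries on 54582 shared symbols. Each test was edgeR 4.0.16 (R 4.3.3) with filterByExpr, TMM scaling and the two-sided quasi-likelihood test, called at a Benjamini-Hochberg adjusted p under 0.05 over all genes tested. DESeq2 1.42.0, other scalings, filters and sample sets were alternatives. The fits were tested on simulated data. CPM are scaled within each fit. Coordinates and lengths come from GENCODE on GRCm38, promoters from RefSeq on GRCm38.p6.

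Values per library are given for called genes of at least 1 CPM among the 6 largest changes of a comparison and for the 3 highest genes per kb. At most 4 genes of each pathway list are named, those with the smallest p. The genes and lists were chosen with earlier results of these data known, so their directions are not independent evidence. Depth was 17000976 to 18770757 counts per library. A gene of the pathway lists and the counts that rest on it are not reported here.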

Additional observations from a re-analysis of the deposited data

Results flagged for a closer look

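The genotype difference of 5 genes differed between the conditions by a test of that difference, the edgeR interaction over 12 libraries. On the log2 scale Oasl1 was at -0.80 (adjusted p = 0.00219), with KO above WT in 3 of 3 libraries without apoptotic cells and no gap with them. Trim30a was at 0.70 (adjusted p = 0.00283) and Parp14 at 0.67 (adjusted p = 0.00197), both with every KO + AC library above WT + AC and every KO library below WT. Ifi204 was at 0.51 (adjusted p = 0.0196) and Ifih1 at 0.48 (adjusted p = 0.025), where the KO and WT libraries overlapped. Condition and count table cannot be told apart in these values, and Kif13b was not lower in the libraries labelled KO + AC. The fit takes 1 spread for both conditions, although the libraries without apoptotic cells varied more.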

How the results depend on the processing

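Of the genes called, 26 of 33 in KO + AC over KO, 26 of 31 in WT + AC over WT and 3 of 5 in the interaction kept direction and call under every alternative run, against 0 of 3 in KO over WT (1 of 3, Oasl1, apart from the fit with KO library 3 alone) and 0 of 9 in KO + AC over WT + AC. For KO over WT (1 higher, 2 lower, 2045 of all genes), no filter on low counts gave 2 and 4, the replicate block 3 higher, the correction for length and GC content 0 lower (6 at an unadjusted p under 0.05) and 946 of all genes (1297 with the block), the joint fit 4, 4 and 3999, KO library 3 alone 0, 0 (1 and 4 unadjusted) and 95 with a median of -0.12, and a 2-fold minimum 0, 0 and 160. For KO + AC over WT + AC (8, 1 and 1866), DESeq2 gave 2 higher and 1123, the joint fit 0, 0 and 157, and a 2-fold minimum 0, 0 and 28. The medians with apoptotic cells were -0.74 in KO and -0.68 in WT with DESeq2 and with its size factors, and -0.26 and -0.44 with the length and GC correction, with or without the block. A 2-fold minimum left 2 higher in each genotype and 9221 of all genes in WT. For the interaction, the length and GC correction left 2 higher and a 2-fold minimum 0, 0 and 330 of all genes.

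Under the length and GC correction the sign turned for Ifit1 (0.22, and 0.22 with the block) and Ifih1 (-0.21 and -0.21) in KO, and for Ifit2 (0.0999 and 0.0975), Rsad2 (0.30 and 0.30) and Trim30a (0.037 and 0.039) in WT, and the cause was not tested. Leaving out 1 library gave, for KO over WT, 1 to 5 higher, 0 to 7 lower, 312 to 4166 of all genes and medians of -0.11 to 0.033. For KO + AC over WT + AC it gave 2 to 7, 1 to 2, 1192 to 2142 and 0.061 to 0.14, for KO + AC over KO 8 to 11, 23 to 23, 14458 to 15047 and -0.96 to -0.80, for WT + AC over WT 7 to 8, 22 to 25, 14165 to 14987 and -0.88 to -0.69, and for the interaction 2 to 6, 1 to 4, 1129 to 4330 and 0.027 to 0.18. Of all genes called in KO + AC over WT + AC, 58.0% were higher, against 71.8% with DESeq2, 70.2% with the length and GC correction and 43.3% in the joint fit. With no filter the share was 65.9% against 57.5% in KO + AC over KO, 67.4% against 56.9% in WT + AC over WT, and 50.6% against 59.5% in the interaction.

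Same-numbered libraries showed no common pattern of deviation (correlations of -0.29 to 0.27). With 3 libraries in a group this cannot decide whether the replicate numbers pair libraries. With 1 mismatch allowed, the ISRE core stood in 26 of 28 matched genes (92.9%, against 38.9% of all genes), and only 1 of the 3 highest genes per kb was among the 3 highest by CPM. Counts of 3 to 9 for Ifi44 and of 5 to 22 for Mx2 were too low to resolve a difference.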
